A study of Mus musculus with 8 samples.

Results

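The comparison of NFIA with control cells in primary neurospheres rests on 4 of the 8 arrays of the series. Primary neurospheres are floating clusters of neural stem and progenitor cells, here derived from mouse embryonic stem cells and taken on day 6 after the embryoid body stage (passage 0), and secondary neurospheres are the next generation (passage 1, day 12). NFIA-overexpressing cells and control cells grew in mixed spheres and were separated by fluorescence-activated cell sorting before RNA was taken. The groups are PN_control (2 arrays, titled as control) and PN_NFIA (2 arrays, titled as NFIA overexpression), with 2 SN_control and 2 SN_NFIA arrays of secondary neurospheres in the same model. Both groups come from embryonic stem cells and from sorted mixed spheres, and the labels name neither the promoter of the transgene nor the number of clones. Arrays with the same replicate number are set side by side below as pairs 1 and 2; no label states that they came from the same culture.

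NFIA belongs to the nuclear factor I family, transcription factors that bind DNA as dimers at paired TTGGC sequences. In the embryonic neural tube it appears when progenitors turn from making neurons to making glia, together with SOX9, and it promotes early astrocyte genes. Neurospheres from embryonic stem cells are not pure neural tissue and can hold cells of other germ layers and cells that are still pluripotent.

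Some labels of these arrays conflict. The columns of the authors' value table each matched 1 scanner file with a correlation above 0.999, and for 7 of 8 samples that file is attached to another sample, PN_control 2 being the exception. The values below follow the table, a choice made with the resemblance of arrays of 1 group in view. The source names call both PN_control samples and PN_NFIA 2 the NFIA line and PN_NFIA 1 wild type, against the titles, which were followed. The primary arrays lie in row 1 of the slide, with controls in columns 1 and 2 and NFIA in columns 3 and 4, so group and slide position cannot be told apart. Between 51.6% and 56.4% of the spots of a primary array were well above background and 0 were saturated. Nothing in the labels says that the 2 samples of a group came from separate cultures, so p-values measure only the spread between these samples. The number of arrays limits the precision.

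Values are log2 signals relative to the 75th percentile of the array's signal, so 0 is that percentile. The dimmest probe well above background lay between -4.50 and -4.29 on the primary arrays. Differences are NFIA minus control on the log2 scale with their SE from limma (2 arrays a side, all 8 arrays in the model), and p-values were adjusted over the 13790 genes tested. Where a gene was not well above background on either control array, the text gives a bound instead: the mean of both NFIA arrays over the mean of the control arrays, each control value raised to that array's dimmest detected signal where it lay below it. Such a bound takes no account of how much the arrays of a group vary.

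The cells carried the markers of neural progenitors on every primary array. Sox2, a transcription factor of neural stem cells, stood at 2.83 and 2.98 in the control arrays and 2.46 and 3.26 in the NFIA arrays, and the nestin gene Nes was above 4 on all 4 arrays. Nfia itself stood at -1.30 and -0.30 in the control arrays and -0.24 and 0.93 in the NFIA arrays by its brighter probe. The NFIA arrays lie above the control arrays by a narrow margin, and the difference of 1.15 ± 0.48 did not pass the test (adjusted p = 0.513). Its second probe differed by 2.05. Whether either probe reads the introduced sequence is not given in the sources used here. The other family members were also higher in both pairs. Nfix, which acts in late neural stem cells, was -5.04 and -3.05 in control and -2.21 and -1.30 in NFIA arrays, a difference of 2.29 ± 0.70 (adjusted p = 0.326). Nfic differed by 1.46 ± 0.36 (adjusted p = 0.2) and Nfib by 1.095 ± 0.56 (adjusted p = 0.624).

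With limma's adjusted p held under 0.05, 43 of the 13790 genes tested rose (0.312%), whereas 0 fell (0%). Before adjustment 943 genes with a positive and 377 with a negative difference had p under 0.05, and the smallest adjusted p of a negative difference was 0.103. A second count is given with no test: genes at least 2-fold apart in both pairs with no overlap between the groups. By this count 713 genes were higher (5.17% of the genes tested) and 66 lower (0.479%). Of the 713 higher genes, 230 were not well above background on either control array. The median difference over all genes was -0.081, and 42.7% of the genes were positive. With 1 array left out, 0 genes passed without PN_control 1, PN_control 2 or PN_NFIA 1, 1 without PN_NFIA 2, 88 without either SN_control array and 12 without either SN_NFIA array. With scanner files assigned as attached, 0 genes passed (142 had an unadjusted p under 0.05) and 139 were 2-fold higher, and the normexp background correction left 8 and 246. Under the attached assignment the medians of 15 of 51 lists changed sign, ADAMTS proteases and cholesterol synthesis among them.

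**Figure D1:**
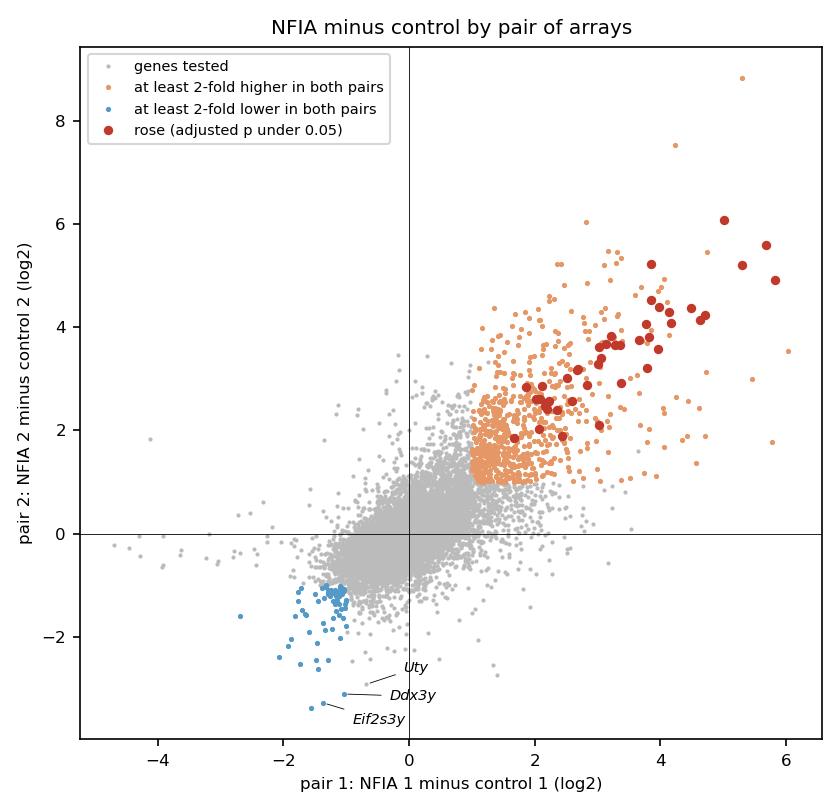
Difference between NFIA and control arrays (log2) for each of the 13790 genes tested, pair 1 on the horizontal axis and pair 2 on the vertical axis; colours mark the 43 genes that rose, the 713 genes at least 2-fold higher and the 66 at least 2-fold lower in both pairs. The 43 genes lie along the upper part of the cloud with values above 1.66 in both pairs, and the 3 labelled Y-linked genes lie lower in pair 2 than in pair 1.

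The largest increases were in genes of very different kinds. Myh8, a skeletal muscle myosin heavy chain gene of late fetal life, stood at -4.14 and -2.96 in the control arrays and 1.54 and 2.63 in the NFIA arrays. It rose by 5.64 ± 0.56 (49.8-fold, adjusted p = 0.0225), with its second probe at 3.75. Tnc, which encodes the matrix glycoprotein tenascin C of radial glia and astrocytes, was -6.19 and -4.45 in control and -0.36 and 0.47 in NFIA arrays, at least 21.0-fold higher (adjusted p = 0.0254). For Hic1, a transcriptional repressor gene, the levels were -4.23 and -5.71 and then 0.79 and 0.37, at least 28.6-fold higher (adjusted p = 0.0411). Cyp1b1, a cytochrome P450 gene induced by the aryl hydrocarbon receptor, went from -4.20 and -4.40 to 1.11 and 0.81. It was at least 36.8-fold higher (adjusted p = 0.0207), and its control arrays were both near the limit of detection. Emp1, a tetraspan membrane protein gene, had -1.89 and -1.58 in control arrays and 2.08 and 2.81 in NFIA arrays and rose by 4.18 ± 0.44 (adjusted p = 0.0233). In each of these 5 genes the NFIA arrays lay far above the control arrays, and only Myh8 and Emp1 were well above background in the controls.

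The promoter sequences of 4 genes that rose are shown as examples of windows that hold the NFI motif, and they were picked for holding it. Each is the 250 bases before a RefSeq transcription start (build GRCm38.p6, 5′ to 3′ on the gene's strand), with capitals marking the NFI motif TTGGCA in either orientation.
Myh8 (chr11:67276874-67277123, strand +): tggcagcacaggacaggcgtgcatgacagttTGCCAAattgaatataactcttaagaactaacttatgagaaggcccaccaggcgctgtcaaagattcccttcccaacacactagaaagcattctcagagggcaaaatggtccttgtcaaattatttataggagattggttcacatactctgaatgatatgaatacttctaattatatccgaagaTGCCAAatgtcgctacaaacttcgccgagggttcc
Tnc (chr4:64046937-64047186, strand -): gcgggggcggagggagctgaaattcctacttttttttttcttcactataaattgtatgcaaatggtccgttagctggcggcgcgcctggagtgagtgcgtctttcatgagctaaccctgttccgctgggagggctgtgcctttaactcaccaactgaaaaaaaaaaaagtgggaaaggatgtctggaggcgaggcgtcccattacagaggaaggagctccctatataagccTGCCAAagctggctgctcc
Emp1 (chr6:135362681-135362930, strand +): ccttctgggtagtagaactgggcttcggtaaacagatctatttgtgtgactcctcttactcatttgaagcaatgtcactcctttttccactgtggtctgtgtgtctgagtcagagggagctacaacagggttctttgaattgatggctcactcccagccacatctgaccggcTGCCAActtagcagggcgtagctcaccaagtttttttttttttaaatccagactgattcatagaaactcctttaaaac
Serpinb5 (chr1:106860925-106861174, strand +): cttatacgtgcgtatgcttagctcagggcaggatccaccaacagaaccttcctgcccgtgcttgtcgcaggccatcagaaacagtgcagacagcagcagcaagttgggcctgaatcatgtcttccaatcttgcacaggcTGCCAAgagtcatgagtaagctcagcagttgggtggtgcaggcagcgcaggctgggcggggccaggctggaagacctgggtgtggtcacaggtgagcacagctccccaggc
Of the 43 genes that rose, 29 matched the promoter table by symbol, with 37 windows from 250 bases before to 50 bases after the start. The motif TTGGCA, searched on both strands, was in 8 of these 29 genes (27.6%), against 13.95% of the 10958 genes tested that have a window. Myh8 held 3 copies, at -219 and -35 before the start and at 3 after it, while Tnc (-19), Emp1 (-78) and Serpinb5 (-111) each held 1. Tnc and Emp1 each have another RefSeq start whose window holds none, and the windows of Cyp1b1, Hic1, Aldh3b1 and Dhrs2, also among the genes that rose most, hold none. The full paired motif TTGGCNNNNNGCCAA was in 0 of the 29 genes and in 4 of the 10958 (0.037%). The AP-1 motif TGANTCA was in 5 of 29 (17.2%), against 6.09%. A match describes letters in a window and not a bound site, and genes with several windows count once.

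**Figure D2:**
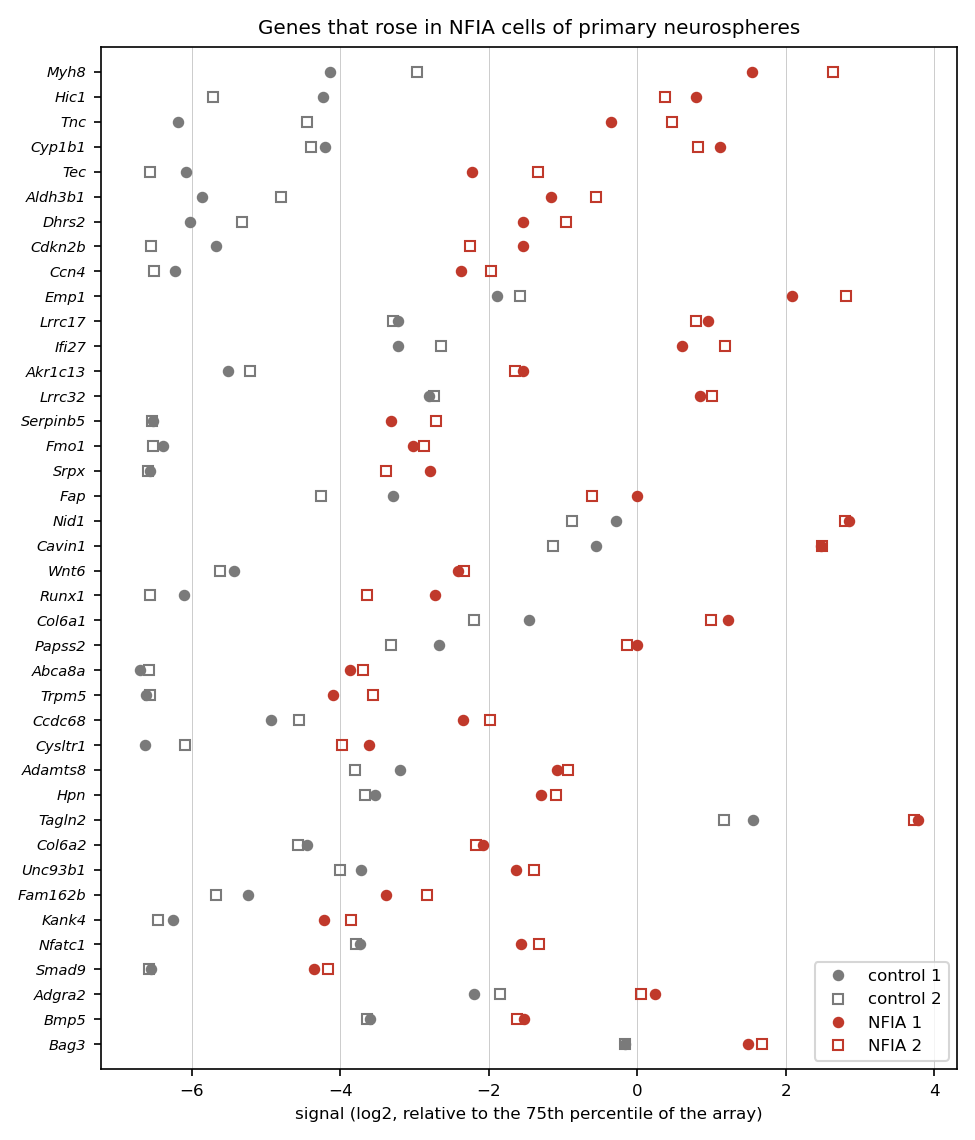
Signal (log2, relative to the 75th percentile of the array) of 40 of the 43 genes that rose, 1 row per gene in order of the difference, with the 2 control arrays in grey and the 2 NFIA arrays in red; circles are replicate 1 and squares replicate 2. In every row both red points lie to the right of both grey points, and 22 of the genes drawn have both control arrays below detection.

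Some of the genes that rose encode enzymes, and they are set together here after their values were seen, not from a list. Aldh3b1, an aldehyde dehydrogenase gene, was -5.87 and -4.80 in control and -1.16 and -0.56 in NFIA arrays, at least 11.1-fold higher (adjusted p = 0.0254). The short-chain dehydrogenase gene Dhrs2 was at least 8.50-fold, the aldo-keto reductase gene Akr1c13 at least 6.70-fold and the flavin monooxygenase gene Fmo1 at least 2.63-fold higher. None of these enzymes was detected on a control array, and all were detected on both NFIA arrays.

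Across the cytochrome P450 family, oxidases of drugs, steroids and fatty acids, 29 of 33 genes tested had a positive difference and 9 were at least 2-fold higher in both pairs (median 0.49, 1 rose). Only 33 of 133 listed genes were tested, and a dim gene could enter through the group where it was high. Olfactory receptors, read in the same way, were positive in 30 of 42 (median 0.31) and vomeronasal receptors in 10 of 14 (median 0.25). Cyp4b1 stood at -6.61 and -6.62 in control and -5.11 and -3.51 in NFIA arrays, with 1 of 4 arrays above background (adjusted p = 0.134), and Cyp2f2 was at least 1.61-fold higher (adjusted p = 0.123). The 8 tested genes of the aryl hydrocarbon receptor list included, beside Cyp1b1, the receptor gene Ahr, at -1.70 and -1.96 in control and 0.25 and 0.89 in NFIA arrays, a difference of 2.40 ± 0.35 (adjusted p = 0.0622). The quinone reductase gene Nqo1 of that list was at least 4.11-fold higher (adjusted p = 0.165), and the list's median was 0.33. Of 19 aldehyde dehydrogenase genes 14 were positive (median 0.24), with Aldh1a2, which makes retinoic acid, at 2.29 ± 0.41 and Aldh1b1 at -1.16 ± 0.31. Retinoid carriers, enzymes and receptors had a median of 0.67, and 5 of 20 were at least 2-fold higher in both pairs.

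Extracellular matrix genes were among the lists with the highest medians. Of 30 collagen genes tested 28 had a positive difference and 14 (46.7%) were at least 2-fold higher in both pairs, against 5.17% of all genes; 2 rose. Col6a1, a chain of the microfibrillar collagen VI, was -1.47 and -2.19 in the control arrays and 1.23 and 0.99 in the NFIA arrays and rose by 2.94 ± 0.34 (adjusted p = 0.0254). Its partner chain Col6a2, also on chromosome 10, was -4.44 and -4.57 and -2.08 and -2.17, at least 4.65-fold higher (adjusted p = 0.0233). The fibrillar chain Col5a3 was at least 4.81-fold higher and narrowly missed the threshold (adjusted p = 0.0517). Collagens had a median difference of 1.18, with 1.18 in pair 1 and 1.33 in pair 2.

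Laminins, the trimers that build basement membranes, were positive in 10 of 11 genes and at least 2-fold higher in both pairs in 6 (median 1.25). Lama4, the vascular alpha chain, was at least 7.599-fold higher (adjusted p = 0.0622), and Lamc1, the common gamma chain, differed by 1.25 ± 0.27 (adjusted p = 0.149). Nid1 encodes nidogen, which links laminin to collagen IV. It stood at -0.28 and -0.88 in control arrays and 2.85 and 2.80 in NFIA arrays and rose by 3.41 ± 0.45 (adjusted p = 0.0411), with its other probes between 3.74 and 3.94. Together with Nid1 and Tnc, 18 of 40 genes of small leucine-rich proteoglycans, elastic fibres and related matrix were at least 2-fold higher in both pairs, and 38 were positive (median 1.22, 2 rose). Thbs2, the thrombospondin 2 gene of that list, was at least 3.17-fold higher (adjusted p = 0.0677).

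Enzymes and receptors of the matrix were mostly positive too. All 17 ADAMTS protease genes tested were positive (median 1.28) and 10 were at least 2-fold higher in both pairs. Adamts8 stood at -3.20 and -3.80 in the control arrays and -1.08 and -0.94 in the NFIA arrays and rose by 2.49 ± 0.30 (adjusted p = 0.032), although its second probe differed by only 0.38. The procollagen peptidase gene Adamts2 differed by 2.89 ± 0.52 and Adamts12 by 1.93 ± 0.38, and neither passed the test (adjusted p = 0.103 and 0.121). Matrix metalloproteases and their inhibitors had a median of 0.75 over 10 genes, with the inhibitor gene Timp3 at 1.95 ± 0.39, the membrane protease gene Mmp14 at 1.66 ± 0.35 and Timp2 at 0.67 ± 0.25. Integrins, the cell-surface matrix receptors, were positive in 16 of 19 (median 0.73). The laminin receptor chain Itga7 was -2.57 and -3.43 in control and 0.75 and 0.82 in NFIA arrays, a difference of 3.79 ± 0.81 (adjusted p = 0.141), Itga8 differed by 2.11 ± 0.48, and the related gene Itgbl1 was at least 4.33-fold higher (adjusted p = 0.0622).

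Markers of mesenchyme and of the mural cells around vessels were positive in 27 of 28 genes tested, and 17 (60.7%) were at least 2-fold higher in both pairs, with a median of 1.18 in pair 1 and 2.24 in pair 2. Fap, the fibroblast activation protein gene, was -3.29 and -4.26 in control and -0.0037 and -0.61 in NFIA arrays and rose by 3.47 ± 0.42 (adjusted p = 0.032). The mesodermal factor gene Tbx15 was at least 3.003-fold higher (adjusted p = 0.0526), and Pdgfrb, the platelet-derived growth factor receptor gene of pericytes, differed by 1.99 ± 0.35 (adjusted p = 0.103). The summed signal of the list was 31.7 and 32.3 in the control arrays and 63.9 and 73.3 in the NFIA arrays, in units of the 75th percentile. These markers moved with the matrix genes, and their part in the result was not tested. The marker list itself holds 7 matrix genes, Fap among them, so part of this likeness is built in. In a bulk sample, more cells of a type and more RNA per cell cannot be told apart.

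Of 11 striated muscle genes 10 were positive, 4 were at least 2-fold higher in both pairs and 1, Myh8, rose (median 0.66), with cardiac actin Actc1 at 1.90 ± 0.41 and the cardiac myosin gene Myh6 at 1.80 ± 0.31, neither past the test. All 11 were sarcomere genes, and 0 of the 6 muscle factor genes on that list were detected well enough to be tested. Outside that list, the actin-binding transgelin gene Tagln2 stood at 1.56 and 1.17 in the control arrays and 3.78 and 3.72 in the NFIA arrays and rose by 2.39 ± 0.32 (adjusted p = 0.0435). Cavin1, which coats caveolae, was -0.55 and -1.13 in control and 2.48 and 2.49 in NFIA arrays and rose by 3.33 ± 0.39 (adjusted p = 0.0254).

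S100 proteins, small calcium binders, had the highest median of the lists with at least 3 genes tested. They were positive in 9 of 10, with 6 at least 2-fold higher in both pairs (median 1.91, 0 rose). S100a4 was -2.72 and -3.40 in control and -0.74 and 0.045 in NFIA arrays, a difference of 2.71 ± 0.85 (adjusted p = 0.345), and S100a10 and S100a11 differed by 1.92 ± 0.50 and 1.68 ± 0.54. All 9 annexin genes tested were positive (median 1.61, 6 at least 2-fold higher in both pairs). Anxa6 stood at 1.73 and 0.86 in the control arrays and 4.06 and 3.97 in the NFIA arrays and differed by 2.72 ± 0.39 (adjusted p = 0.0575), while Anxa4 and Anxa7 differed by 1.61 ± 0.42 and 1.41 ± 0.33. Serpins, mostly protease inhibitors, had a median of 0.71 over 19 genes. Serpinb5, the maspin gene, was -6.53 and -6.54 in control and -3.32 and -2.71 in NFIA arrays, at least 2.50-fold higher (adjusted p = 0.0254), and Serpinb1a differed by 3.49 ± 0.64 (adjusted p = 0.103). Serpinb1b was detected on 1 NFIA array and on neither control array, at -6.27 and -6.40 in control and -4.95 and -3.83 in NFIA arrays (adjusted p = 0.147).

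Of the TGF-beta and activin pathway, 27 of 34 genes were positive and 11 were at least 2-fold higher in both pairs (median 0.81, 0 rose). By role the median was 1.25 for 8 ligands, 0.96 for 8 receptors, 0.61 for 11 effectors and binding proteins and 1.21 for 7 targets. Tgfbr2, the type II TGF-beta receptor gene, stood at -0.25 and -0.76 in the control arrays and 1.33 and 1.14 in the NFIA arrays, a difference of 1.74 ± 0.27 (adjusted p = 0.0677). The co-receptor gene Eng was at least 1.69-fold higher and the target gene Tagln differed by 1.21 ± 0.24. Lrrc32, which tethers latent TGF-beta at the cell surface and was not in the list, was -2.81 and -2.74 in control and 0.84 and 1.01 in NFIA arrays and rose by 3.70 ± 0.32 (adjusted p = 0.0225).

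BMP genes split by role. All 5 ligand genes tested were positive (median 1.095), while 4 of 6 target genes were negative (median -0.36), and the list's median was 0.28 over 24 genes. Bmp5 was -3.61 and -3.65 in control and -1.53 and -1.62 in NFIA arrays and rose by 2.05 ± 0.24 (adjusted p = 0.0272). The ligand gene Bmp2 differed by 1.095 ± 0.35 (adjusted p = 0.352). Smad9, which encodes a signal-carrying SMAD of this pathway, was near the floor in the controls (-6.55 and -6.58) and just above detection in the NFIA arrays (-4.35 and -4.17), at least 1.05-fold higher (adjusted p = 0.0233).

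In the Wnt pathway the secreted modulators had the highest median, 0.77 over 14 genes, against 0.068 for 11 ligands and 0.15 for 15 receptors. Wif1, a secreted inhibitor that binds Wnt proteins, stood at -3.73 and -1.52 in the control arrays and 0.94 and 2.61 in the NFIA arrays, a difference of 4.40 ± 0.79 (adjusted p = 0.103). The ligand gene Wnt6 was -5.43 and -5.62 in control and -2.41 and -2.33 in NFIA arrays, at least 3.91-fold higher (adjusted p = 0.0225), and Wnt11 was at least 3.72-fold higher (adjusted p = 0.0618). Ccn4, a Wnt-induced matricellular gene, was at least 4.49-fold higher (adjusted p = 0.046), with its second probe at 1.05.

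Interferon-inducible GTPases and antiviral genes had positive differences, and most MHC class I genes negative ones. Of 19 interferon response genes 17 were positive and 10 (52.6%) were at least 2-fold higher in both pairs (median 1.34, 1 rose); effectors had a median of 1.70 and sensors and factors 0.26. Ifi27 was -3.23 and -2.64 in control and 0.60 and 1.18 in NFIA arrays and rose by 3.82 ± 0.40 (adjusted p = 0.0233), and the antiviral enzyme gene Rsad2 was at least 3.95-fold higher (adjusted p = 0.0652). All 10 guanylate-binding and immunity-related GTPase genes tested were positive (median 1.76, 7 at least 2-fold higher in both pairs). Only these 10 of 18 listed GTPase genes, and 19 of 31 listed interferon response genes, were tested. A dim gene could enter through the group where it was high, so these shares and medians can partly follow from the filter. Gbp4 was at least 3.15-fold higher (adjusted p = 0.103) and Irgm2 at least 2.21-fold (adjusted p = 0.116). Gbp3 was well above background on 1 NFIA array and on neither control array.

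MHC class I genes, which present peptides to T cells, had a median of -0.84 over 5 genes. H2-Q7 stood at 0.90 and 0.66 in the control arrays and -0.28 and -0.52 in the NFIA arrays, a difference of -1.18 ± 0.34 (adjusted p = 0.292), and H2-K1 differed by -0.84 ± 0.29 by both of its probes. Class I genes are near-identical copies, so a probe may read several of them. Ciita, the regulator gene of class II expression, was at least 1.23-fold higher (adjusted p = 0.405). It was the 1 positive gene of 3 tested in the class II group. The other 2 were negative, the lowest at -2.17, the group's median was -0.074, and 0 were at least 2-fold lower in both pairs. Among 12 complement genes (median 0.22) the shield gene Cd55 differed by 1.89 ± 0.72 and the protease gene C1s1 was at least 2.38-fold higher, neither past the test.

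Several called genes belong to none of these groups. Tec, a non-receptor tyrosine kinase gene, was -6.08 and -6.57 in control and -2.23 and -1.33 in NFIA arrays, at least 5.90-fold higher (adjusted p = 0.0225), with its second probe at 4.56. Lrrc17, a secreted leucine-rich repeat gene, stood at -3.22 and -3.29 in the control arrays and 0.95 and 0.79 in the NFIA arrays and rose by 4.12 ± 0.41 (adjusted p = 0.0225). Srpx, a sushi-repeat protein gene on the X chromosome, was at least 2.38-fold higher (adjusted p = 0.0254). Runx1, a factor needed to form blood stem cells, was -6.10 and -6.56 in control and -2.73 and -3.64 in NFIA arrays, at least 2.23-fold higher (adjusted p = 0.035). Other called genes were named after their values were seen: Papss2, Abca8a, Trpm5, Ccdc68, Cysltr1, Hpn, Unc93b1, Fam162b, Kank4, Nfatc1, Adgra2 and Bag3. Papss2, which makes the sulfate donor for proteoglycans, rose by 2.93 ± 0.30, and Bag3, an HSP70 partner gene, rose by 1.76 ± 0.22, the smallest increase of the 43.

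Cell cycle genes all had negative differences. All 39 cell cycle and mitosis genes tested were negative, with a median of -0.37 against -0.081 for all genes, and 0 fell or were 2-fold lower in both pairs. Ccnd1, the cyclin D1 gene, was 4.23 and 3.90 in control and 3.31 and 2.62 in NFIA arrays, a difference of -1.101 ± 0.31 (adjusted p = 0.272). Cyclin A2 (Ccna2) differed by -0.80 ± 0.26 and a mitotic topoisomerase (Top2a) by -0.71 ± 0.29. The CDK4 and CDK6 inhibitor gene Cdkn2b was -5.68 and -6.55 in the control arrays and -1.54 and -2.25 in the NFIA arrays by its brighter probe, at least 5.44-fold higher (adjusted p = 0.0254), but its second probe differed by -0.28. Its neighbour Cdkn2a, the gene of the INK4A and ARF proteins, stood at -1.15 and -1.96 in control and 0.73 and 0.62 in NFIA arrays, a difference of 2.23 ± 0.69 (adjusted p = 0.332). The pocket protein gene Rbl1 differed by -0.92 ± 0.28, and the median over all genes of that list was -0.20 (25 genes).

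Cholesterol synthesis was the list with the most genes 2-fold lower. All 19 enzyme genes tested were negative (median -0.83), and 5 were at least 2-fold lower in both pairs, against 0.479% of all genes; 0 fell by the test. Lss, which closes the sterol rings, was 1.09 and 0.96 in control and -0.017 and -0.42 in NFIA arrays, a difference of -1.24 ± 0.30 (adjusted p = 0.189). Nsdhl, a later enzyme of the same pathway, was 1.71 and 1.30 in the control arrays and 0.56 and 0.094 in the NFIA arrays and differed by -1.18 ± 0.28 (adjusted p = 0.185). The cholesterol exporter gene Abca1 went the other way, at -2.05 and -2.51 in control and -0.54 and 0.31 in NFIA arrays (2.16 ± 0.44, adjusted p = 0.133).

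Neurogenic genes mostly had negative differences. Proneural and neurogenic progenitor genes were negative in 21 of 25 (median -0.71), and 2 were at least 2-fold lower in both pairs. St18, a zinc finger factor gene of newborn neurons, stood at -1.102 and -1.0 in the control arrays and -2.81 and -2.49 in the NFIA arrays, a difference of -1.60 ± 0.39 (adjusted p = 0.198), and the Notch ligand genes Dll1 and Dll3 differed by -1.101 ± 0.31 and -1.11 ± 0.34. Neuronal genes were negative in 35 of 39 (median -0.51). The vesicular glutamate transporter gene Slc17a6 was 0.60 and -0.16 in control and -0.51 and -1.37 in NFIA arrays, a difference of -1.15 ± 0.48 (adjusted p = 0.517), and the microtubule gene Stmn3 and the granin gene Scg2 differed by -1.09 ± 0.46 and -0.89 ± 0.30. Protocadherins, the clustered adhesion genes of neurons, were negative in 33 of 41 (median -0.36), with Pcdhb3 at -0.78 ± 0.26, Pcdhb10 at -0.76 ± 0.27 and Pcdhb21 at -0.74 ± 0.34. These genes are similar in sequence and a probe may read several.

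Progenitor genes had mostly negative and astrocyte genes mostly positive differences. Of 19 neural stem cell and radial glia genes 15 were negative (median -0.34), with Pax6 at -1.05 ± 0.32, while the Notch effector gene Hes1 (1.25 ± 0.35) and the receptor gene Notch1 (0.99 ± 0.40) were positive. Astrocyte genes were positive in 25 of 35 and 8 were at least 2-fold higher in both pairs, with a median of 0.29 in pair 1 and 1.08 in pair 2. Sparcl1, a secreted astrocyte protein gene, was 2.53 and 2.27 in control and 4.84 and 6.82 in NFIA arrays, a difference of 3.43 ± 0.73 (adjusted p = 0.141). The probe for Gfap was not well above background on any primary array, and Sox9 differed by 0.13 ± 0.28 (adjusted p = 0.908). The summed signal of the astrocyte list was 262 and 228 in the control arrays and 267 and 476 in the NFIA arrays, so PN_NFIA 1 was level with the control arrays and PN_NFIA 2 above them. That sum is weighted by bright genes such as Sparcl1. Gene by gene, 13 of 35 were at least 2-fold higher in PN_NFIA 2 than in PN_NFIA 1 and 1 the reverse. The share over all genes tested was not counted.

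The 2 NFIA arrays differed from each other in markers of other cell types. Afp, the alpha-fetoprotein gene of yolk sac and liver, was -1.29 in PN_NFIA 1 and -4.62 in PN_NFIA 2, and the endoderm factor gene Gata4 was -1.46 and -4.69; neither was well above background on PN_NFIA 2 or on a control array, so neither entered the test. Of 16 tested endoderm genes 6 were at least 2-fold higher in PN_NFIA 1 than in PN_NFIA 2 and 0 the reverse, with a median difference from control of 1.78 in pair 1 and 0.99 in pair 2. Sox7, an endoderm and endothelial factor gene, was at least 1.30-fold higher (adjusted p = 0.0709) and the transthyretin gene Ttr differed by 2.78 ± 0.46 (adjusted p = 0.0883). Sparc, the brightest gene of the list, stood at 6.95 and 6.17 in control and 8.41 and 8.32 in NFIA arrays. The list's summed signal, most of it from Sparc, was 149 and 99.2 in the control arrays and 398 and 363 in the NFIA arrays.

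Epithelial and pluripotent cell markers leaned the same way. Epithelial genes had a median of 1.42 in pair 1 and 0.39 in pair 2, and 9 of 21 were at least 2-fold higher in PN_NFIA 1 than in PN_NFIA 2. The E-cadherin gene Cdh1 was -0.64 and -0.98 in the control arrays and 0.78 and 0.037 in the NFIA arrays (1.22 ± 0.33, adjusted p = 0.249). Of 12 claudin genes of tight junctions 11 were positive (median 0.86), with Cldn7 at -0.58 and -0.61 in control and 1.67 and 0.57 in NFIA arrays. Cldn4 was at least 1.94-fold higher (adjusted p = 0.229), and Cldn20 was not detected on any primary array. Pluripotent cell genes were positive in 26 of 28 (median 0.70), with 1.08 in pair 1 and 0.47 in pair 2. Pou5f1, the OCT4 gene, stood at -1.23 and -1.81 in the control arrays and -0.23 and -1.15 in the NFIA arrays (adjusted p = 0.702), so PN_NFIA 2 lay barely above the controls. Nanog was -0.80 and -0.33 in control and -0.27 and 0.12 in NFIA arrays (adjusted p = 0.743). Fgf4 differed by 1.47 ± 0.31, Klf2 by 1.74 ± 0.40 and Nodal by 1.08 ± 0.28, none past the test.

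All 12 endothelial genes tested were positive (median 1.07, with 1.64 in pair 1 and 0.69 in pair 2). The receptor gene Flt1 was -1.70 and -1.68 in the control arrays and 1.07 and -1.18 in the NFIA arrays, high in PN_NFIA 1 alone, and Emcn was at least 1.66-fold higher (adjusted p = 0.206). Of 8 blood and microglia genes 5 were positive (median 0.75), 3 (37.5%) were at least 2-fold higher in both pairs and 1, Runx1, rose, with Cd34 at -1.12 and -4.38 in control and 1.83 and -0.33 in NFIA arrays and the globin gene Hba-a1 at least 1.40-fold higher (adjusted p = 0.209). The common leukocyte gene Ptprc was not well above background on any primary array. The summed signal of the blood list was 19.5 and 20.8 in the control arrays and 20.0 and 21.1 in the NFIA arrays, and that of the endothelial list was 19.8 and 19.4 in the control arrays and 36.4 and 29.9 in the NFIA arrays. The part of these markers in the results was not tested.

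**Figure D3:**
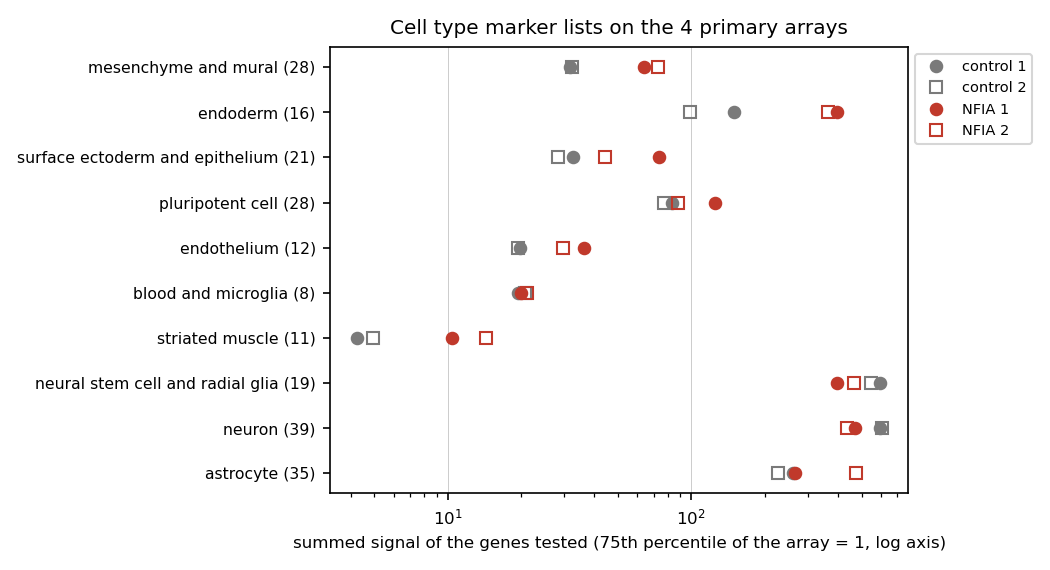
Summed linear signal of the tested genes of 10 cell type lists on the 4 primary arrays (log axis, the 75th percentile of the array being 1, number of genes in brackets); grey is control, red is NFIA, circles are replicate 1 and squares replicate 2. Mesenchymal, endoderm and muscle sums were higher on both NFIA arrays, epithelial and pluripotent sums were highest on NFIA 1, and the astrocyte sum was highest on NFIA 2. The muscle sum includes Myh8, which rose.

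The 10 genes with the smallest p among negative differences did not pass the test. Hpgds, the hematopoietic prostaglandin D synthase gene, was -3.26 and -3.10 in control and -4.81 and -6.47 in NFIA arrays, at least 2.33-fold lower (adjusted p = 0.136). The peptidase-like gene Naaladl1 was at least 1.22-fold lower (adjusted p = 0.103), as was 1700001O22Rik by at least 1.55-fold (adjusted p = 0.107). Rasl11a differed by -2.05 ± 0.50, Dipk1b by -1.16 ± 0.29 and Skiv2l by -1.07 ± 0.26. The other 4 were Nsdhl and Lss of cholesterol synthesis, the neurogenic gene St18 and the Y-linked gene Eif2s3y.

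All 3 Y-linked genes tested had negative differences, and 4 X-linked counterparts of Y-linked genes had a median of 0.0062. Eif2s3y, a translation factor gene, stood at 2.83 and 3.02 in the control arrays, 1.46 in PN_NFIA 1 and -0.26 in PN_NFIA 2 (-2.32 ± 0.53, adjusted p = 0.163). The RNA helicase gene Ddx3y was 0.0085 and 0.22 in control and -1.03 and -2.89 in NFIA arrays, a difference of -2.07 ± 0.54. Uty, a histone demethylase gene, was -1.72 and -1.14 and -2.40 and -4.07, a difference of -1.80 ± 0.53. In all 3 genes both NFIA arrays lay below both control arrays, and PN_NFIA 2 lay further below. Kdm5d and Xist were not well above background on any primary array.

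Some housekeeping families had small negative medians. Respiratory chain subunits were negative in 67 of 73 (median -0.29), with -0.51 in pair 1 and -0.11 in pair 2, and Ndufa10 and Ndufv1 of complex I differed by -0.83 ± 0.33 and -0.44 ± 0.27. Proteasome subunits were negative in 33 of 36 (median -0.38), with Psmb7 at 4.27 and 3.31 in control and 2.88 and 2.34 in NFIA arrays, Psmd8 at -0.84 ± 0.36 and Psmd13 at -0.64 ± 0.33. None of these genes passed the test. The other 47 lists and families with at least 3 genes tested, beside the lists named in this text, had medians between -0.21 and 0.61.

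**Figure D4:**
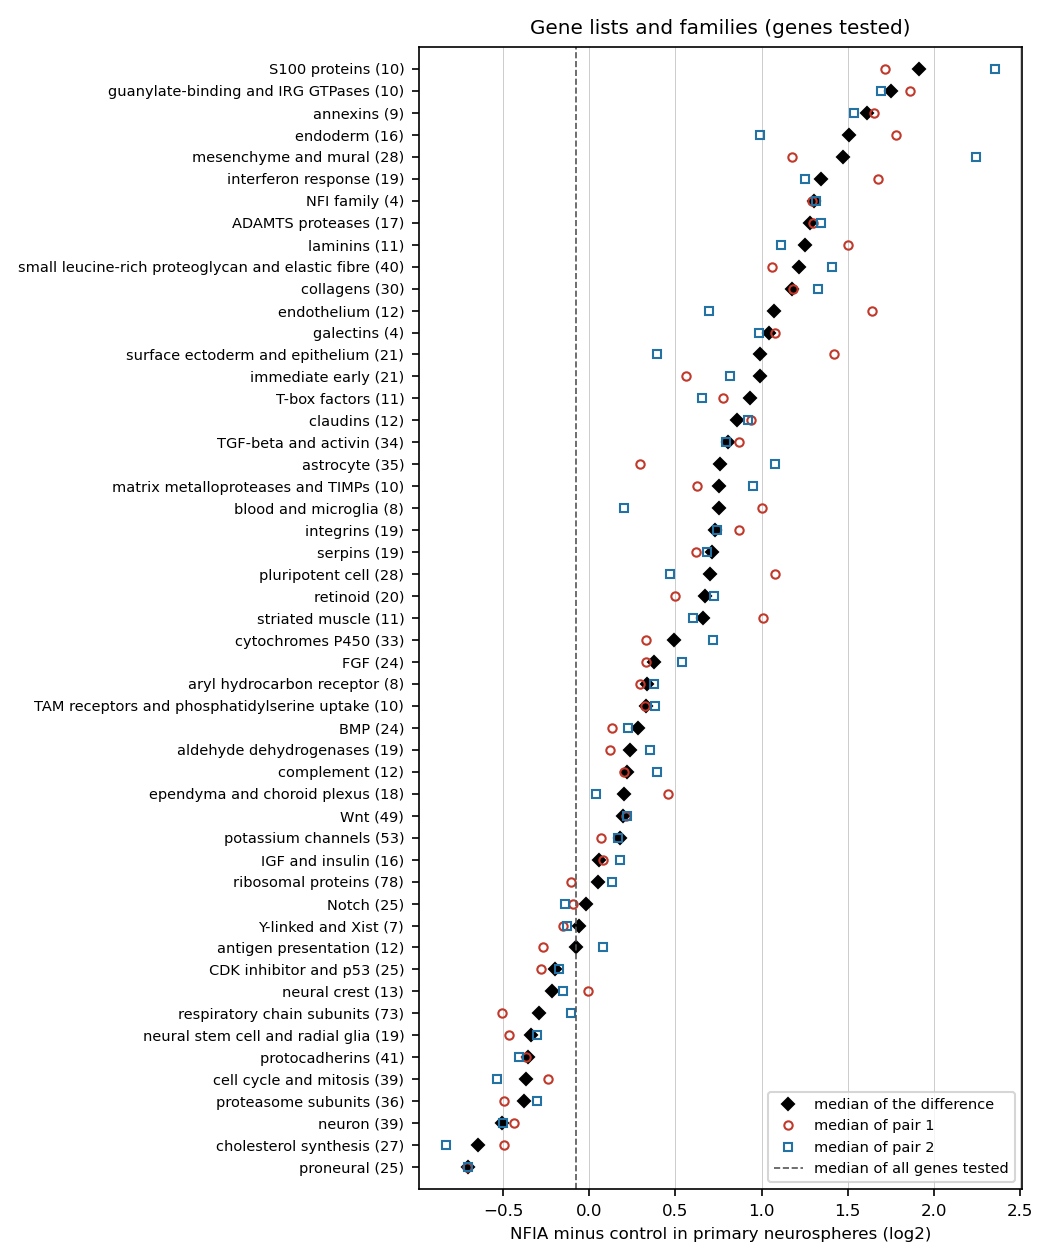
Median of the NFIA minus control difference (log2) for 51 gene lists and families, with the number of genes tested in brackets; diamonds are the fitted difference, circles pair 1 and squares pair 2, and the dashed line is the median of all genes tested (-0.081). Matrix, annexin, S100, interferon and mesenchymal lists lie to the right in both pairs, proneural, neuronal and cholesterol lists to the left, and endoderm, epithelial, endothelial and pluripotent lists lie further right in pair 1.

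The same contrast in secondary neurospheres shows how far the primary values recurred a passage later, on arrays that share no sample with the primary ones. There 67 genes passed the same test as higher (0.486%), and 62 as lower (0.45%). Of the 43 genes that rose in primary neurospheres, 36 had a positive difference in secondary neurospheres and 12 also rose there. Both tests took their spread from all 8 arrays, and the 43 genes passed partly through a small spread. Passing in secondary neurospheres was therefore not an independent result. Myh8 had about the same difference, 5.72 ± 0.56 (adjusted p = 0.0156), and Serpinb5 also rose (adjusted p = 0.00454), at -5.44 and -5.89 in secondary control arrays, below their dimmest detected signals (-3.14 and -3.60), and 1.04 and 0.049 in secondary NFIA arrays. Hic1 (1.31 ± 0.73), Tnc (1.22 ± 0.61) and Cyp1b1 (1.503 ± 0.36) did not pass there. Of the 713 genes 2-fold higher in both primary pairs 553 were positive in secondary neurospheres, and of the 66 lower genes 55 were negative. Over all 13790 genes tested the median secondary difference was -0.017, so positive genes were not in the majority there. The exact share of positive genes was not counted. The limma test of the difference between passages called 0 genes as larger in primary neurospheres (0%) and 0 as smaller (0%), with 552 and 379 at an unadjusted p under 0.05. Without SN_control 1 it called 30 genes as larger and without SN_control 2 it called 1 as smaller, and with all 8 arrays no gene was shown to differ between passages.

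Between lists the passages differed in sign for some and not for others, as a description with no test. Mesenchymal genes had a median of 1.48 in primary and -0.17 in secondary neurospheres, collagens 1.18 and -0.14, laminins 1.25 and -0.0064, and epithelial genes 0.99 and -1.23. ADAMTS proteases had 1.28 and 1.13, interferon response genes 1.34 and 1.03, cholesterol synthesis genes -0.65 and -0.62 and proneural genes -0.71 and -1.26. Astrocyte genes had 0.76 in primary and 1.84 in secondary neurospheres.

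**Figure D5:**
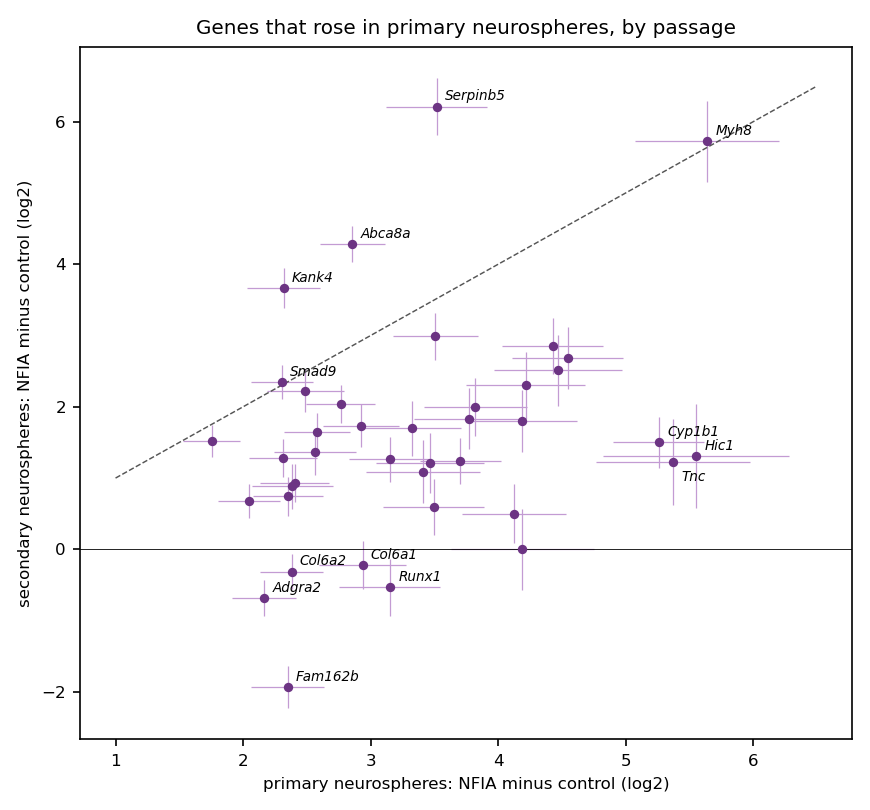
Difference between NFIA and control (log2) in primary (horizontal) and secondary (vertical) neurospheres for 40 of the 43 genes that rose in primary neurospheres; points are limma estimates from 2 arrays a side, bars are SE and the dashed line marks equal differences. Most points lie between 0 and the dashed line, 6 lie below 0 and 5 above the line.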

How the data were processed

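RNA was hybridised to 1-colour Agilent arrays, 1 per sample. Per the file headers, the deposited scanner files hold the processed intensity of each spot from Feature Extraction 10.5.1.1 and, as flags of other kinds, calls of signal above background, saturation and outliers; the submitters' processing notes name version 10.7.3.1. The authors' value table holds log2 values, scaled to the 75th percentile of the array and, from the values, centred on each probe's median. Arrays were matched to samples by setting each column of that table against each file; groups follow the sample titles.

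Signals were taken to log2 and the array's 75th percentile was subtracted. The filter kept a probe where some group had both of its arrays well above background (30186 of 55681 probes, with 126 left out by outlier flags), and the brightest probe stands for a gene, for 13790 genes. Members of dim lists could pass it through only the group where they were high. Their shares of positive genes and their medians can therefore partly follow from the filter. Symbols came from RefSeq through the transcript accession. The test was limma 3.58.1 under R 4.3.3 (lmFit and eBayes, 4 group means over 8 arrays, Benjamini-Hochberg), after a test of the script on simulated data. Lists, families and members were chosen with earlier results of these data known. Named genes are the 25 largest increases past the test, the 10 smallest p among negative differences, the 3 smallest p of each list described, and a fixed set around NFIA, cell type and sex chromosomes; Sox2, Nes and Ptprc were added to check cell identity, and some genes that met the rule are not reported here. Alternatives cover background correction, normalization, filter, probe choice, arrays in the model, replicate block, file assignment and leaving out each array. Normexp used the median signal, and H19 matched no probe by symbol.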

Additional observations from a re-analysis of the deposited data

Results flagged for a closer look

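In 4 of the genes reported here that rose in primary neurospheres, NFIA arrays lay above control arrays in both primary pairs and below them in both secondary pairs. These 4 genes were picked for having risen and for lying below control in both secondary pairs, so both signs are fixed by that choice. The differences between passages follow in part from the same choice. The limma test of those differences missed the threshold for each gene (adjusted over all genes). The gene Fam162b differed by 2.35 in primary and -1.93 in secondary neurospheres, a difference between passages of 4.28 ± 0.41 (adjusted p = 0.0713). The gene Runx1, the blood factor gene, differed by 3.15 in primary and -0.53 in secondary neurospheres, a difference between passages of 3.69 ± 0.56 (adjusted p = 0.145). The gene Adgra2, an adhesion receptor gene of brain vessels, differed by 2.17 in primary and -0.68 in secondary neurospheres, a difference between passages of 2.85 ± 0.35 (adjusted p = 0.0997). The gene Col6a2, a collagen VI chain gene, differed by 2.38 in primary and -0.31 in secondary neurospheres, a difference between passages of 2.69 ± 0.35 (adjusted p = 0.109). The fitted differences use signals as measured. Fam162b, Runx1 and Col6a2 were not well above background on either primary control array, so their primary differences are only known to be at least 2.35-fold, 2.23-fold and 4.65-fold, and no exact size between passages is known for them. The secondary NFIA values of Fam162b (-5.07 and -5.19) lay below the dimmest detected signals of those arrays (-3.97 and -3.79). Of these genes, Fam162b is the one that also passed the test in secondary neurospheres, where it fell (adjusted p = 0.0412). The secondary differences of Adgra2 (-0.68 ± 0.25), Runx1 (-0.53 ± 0.40) and Col6a2 (-0.31 ± 0.25) did not pass limma's test (adjusted p = 0.261, 0.591 and 0.622). Some of these pairs were nearly level. Col6a2 stood at -0.43 in SN_control 1 and -0.48 in SN_NFIA 1, and Runx1 at -2.07 in SN_control 2 and -2.23 in SN_NFIA 2. In secondary controls all 4 genes stood above their primary control levels, for example Fam162b at -3.27 and -3.12 against -5.24 and -5.68 and Col6a2 at -0.43 and 0.0017 against -4.44 and -4.57.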

How the results depend on the processing

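The 43 genes that rose, chosen for a positive difference, were positive under the alternatives in which they were tested (35 of them with files as attached), but the lowest difference among them went from 1.76 to 0.29 with normexp and 0.13 with files as attached, and the number of genes past the test moved: 8 with normexp, 22 with quantile normalization, 0 without a filter on dim probes (lowest adjusted p among the 43 of 0.0525), 0 with files as attached, and 139 (with 1 gene that fell) from the primary arrays alone. With each array left out in turn, the lone sample being assumed to vary like the other groups, the count ran from 0 to 88. The larger differences in primary than in secondary neurospheres ran from 0 to 30 and the smaller ones from 0 to 1 in the same way, and quantile normalization gave 1 larger. Genes 2-fold higher numbered 246 with normexp and 139 with files as attached. Genes 2-fold lower numbered 15 with normexp, 101 without the filter and 30 with files as attached. Pairs taken alone, added after the data were seen, gave 1181 higher and 330 lower (pair 1) and 1206 and 296 (pair 2). A filter on the primary arrays, a mean over probes and the authors' value table moved each count by less than 1.5 times. The causes were not tested.

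No label says that equal replicate numbers share a culture, so the replicate block is an alternative: it called 69 genes, 33 of them among the 43. Replicate deviations of NFIA and control arrays correlated at 0.445 in primary and 0.484 in secondary neurospheres.

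With files as attached, the sign turned for Ddx3y (0.79), Eif2s3y (0.29), H2-K1 (0.12), Hes1 (-0.077), Heyl (-0.064), Igfbp6 (-0.23), Mmp14 (-0.12), Nfib (-0.30), Psmd13 (0.078), Sox9 (-0.31), St18 (0.15), Stmn3 (0.020), Timp2 (-0.19) and Uty (0.53), and for the medians of ADAMTS proteases (-0.19), matrix metalloproteases and TIMPs (-0.16), BMP (-0.20), Wnt (-0.11), antigen presentation (0.12), complement (-0.17), cholesterol synthesis (0.052), CDK inhibitor and p53 (0.016), Y-linked and Xist (0.29), respiratory chain subunits (0.17), proteasome subunits (0.073), FGF (-0.25), IGF and insulin (-0.13), neural crest (0.19) and potassium channels (-0.082). Quantile normalization turned the medians of Y-linked and Xist (0.011) and Notch genes (0.051), and normexp turned Notch (0.0084). The Y-linked and Xist list joins 3 Y-linked genes (median -2.07) with 4 X-linked ones (0.0062), so its main median was only -0.0595. With quantile normalization 0 named genes changed sign, the 3 Y-linked genes included. With 1 primary array left out in turn, values that changed sign ranged over -0.062 to 0.33 for Sox9, and as medians over -0.32 to 9.6e-05 for antigen presentation, -0.015 to 0.30 for IGF and insulin, -0.12 to 0.11 for ribosomal proteins, -0.22 to 0.46 for neural crest and -0.15 to 0.028 for Notch. Signals near background limit the 25 called genes not detected in controls.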

Other observations

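Choroid plexus genes were positive in 6 of 8, and 4 (50.0%) were at least 2-fold higher in both pairs (median 1.28, 0 rose), while the ciliary genes of the same list had a median of 0.068 over 10. Ecrg4, a secreted peptide gene of choroid plexus, was -4.18 and -6.25 in the control arrays and 1.13 and 2.57 in the NFIA arrays, at least 67.7-fold higher (adjusted p = 0.0812), and Clic6 differed by 2.88 ± 0.65. Ttr, given above with the endoderm markers, belongs to the choroid plexus genes too. Of other lists, Gas6, a ligand that tags dying cells for uptake through the TAM receptors, was 0.11 and 0.26 in control and 4.17 and 5.20 in NFIA arrays (4.499 ± 0.69, adjusted p = 0.0677), and its receptor gene Mertk differed by 1.80 ± 0.44. Kcnt1, a sodium-activated potassium channel gene, was at least 9.996-fold higher (adjusted p = 0.0573) and Kcnj8, a channel gene of pericytes, at least 1.33-fold (adjusted p = 0.0737). Of the growth factors, Fgf1 was at least 7.28-fold higher (adjusted p = 0.0904) and Igf1 differed by 2.33 ± 0.57 (adjusted p = 0.198). Their families were mixed. Of 11 FGF ligand genes 6 were positive and 5 negative, with 2 at least 2-fold higher and 2 at least 2-fold lower in both pairs. Of IGF and insulin genes 8 were positive and 8 negative (median 0.053), and of potassium channels 32 were positive and 21 negative (median 0.18). None of these genes passed the test.

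Immediate early and AP-1 genes were positive in 16 of 21 (median 0.99), with Fosl2 at 2.47 ± 0.51 and Myc at 0.99 ± 0.39. The T-box factor family had a median of 0.93 over 11 genes, with Tbx2 at 3.16 ± 0.65. All 4 galectin genes tested were positive, with Lgals1 at 3.26 and 2.38 in control and 4.79 and 5.10 in NFIA arrays (adjusted p = 0.103). In the Notch list, 12 of 25 genes were positive (median -0.019, turning to 0.051 with quantile normalization and 0.0084 with normexp), although the effector gene Heyl was at least 5.28-fold higher (adjusted p = 0.198). In neural crest genes (6 of 13 positive) Sox8 was at least 5.31-fold higher (adjusted p = 0.201) and Ets1 differed by 2.0 ± 0.48. Ribosomal protein genes were positive in 41 of 78 (median 0.050).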
